A study of Mus musculus with 12 samples.

Results

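Glucocorticoid-responsive genes and corticosteroid receptors were described in mouse hippocampus as a fixed set of 10 genes out of 24421 in the count table, of which 13065 passed the expression filter and were tested. The members were both corticosteroid receptors, Nr3c1 and Nr3c2, and 8 genes known to be induced through them: Fkbp5, Sgk1, Tsc22d3, Zbtb16, Pdk4, Cdkn1a, Sult1a1 and Plin4. They were chosen by symbol and known function, with earlier results of these data known, and all 10 passed the filter. Shares of members set beside shares of all genes are therefore descriptions. The study profiled hippocampal RNA of mice aged 2 months by QuantSeq, a 3′ mRNA sequencing method which reads transcripts from their 3′ ends, so that counts are not scaled by gene length. Each of 4 genotypes (WT, 5xFAD, p75NTRko and 5xFAD/p75NTRko) had 3 libraries, labelled as biological replicates, 12 in all. 5xFAD mice are a transgenic model of Alzheimer's disease, in which a Thy1 promoter drives the transgenes in neurons. In p75NTRko mice the gene of the p75 neurotrophin receptor, Ngfr, is knocked out. BrdU, which is built into the DNA of dividing cells, had been injected into mice of every genotype, WT included. Strain, sex and time of day at dissection are not given in the labels, and no library came from an animal labelled as stressed or given a steroid. By its title the series concerns the receptor in adult hippocampal neurogenesis in this disease, and its labels pose no question about glucocorticoids.

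Corticosterone, the main glucocorticoid of mice, enters the brain and binds a pair of nuclear receptors that are both abundant in the hippocampus. The mineralocorticoid receptor, product of Nr3c2, has the higher affinity and is largely occupied at resting hormone levels, whereas the glucocorticoid receptor, product of Nr3c1, is filled as hormone rises at the daily peak or in stress. The activated receptors bind glucocorticoid response elements in DNA and raise the transcription of genes such as Fkbp5, whose product in turn lowers the receptor's affinity for hormone.

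Libraries held 4316739 to 6683613 gene-assigned counts, so that 3 counts, taken as the limit of measurement, equalled 0.446 to 0.690 CPM (counts scaled to a common library size, with TMM factors). Markers of hippocampal neurons were found in every library, with all 8 of the list tested and summed levels of 679 to 1201 CPM. Thy1, whose promoter drives the transgenes, had 1596 to 4019 CPM in the 6 carriers and 688 to 939.8 CPM in the other 6 libraries. Ngfr was higher in the 6 libraries labelled p75NTRko or 5xFAD/p75NTRko (5.95 to 10.5 CPM) than in the other 6 (0.166 to 1.95 CPM), against the label. The labels do not say which part of the gene is deleted, and 3′ reads outside it check nothing, so the receptor genotypes are given as labelled throughout. Xist had 359.7 to 439 CPM in all WT, all 5xFAD/p75NTRko and p75NTRko replicate 1 (the high class), and 1.53 to 3.58 CPM in all 5xFAD and in p75NTRko replicates 2 and 3. Genotype and Xist class therefore cannot be told apart in 5xFAD against WT or in 5xFAD/p75NTRko against 5xFAD. Transcripts from the Y chromosome went the opposite way. Their summed level was 0.332 to 1.36 CPM in the high class and 156 to 200.5 CPM in the low class. The high class is thus read as female and the low class as male, although the labels do not state it. On this reading both contrasts also set males against females, and p75NTRko replicate 1 is the only female of its genotype.

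Sequence upstream of the members was read from RefSeq (GRCm38.p6, the assembly that mm10 names) because Plin4, Sult1a1, Sgk1 and Tsc22d3 were all highest in the same 2 libraries, as shown further on, while Fkbp5 was highest in one of them and lowest in the other. The table held 16 start sites of 8 members, and Nr3c1 and Zbtb16 did not match. The 250 bases before each start were searched for the hexamer of a glucocorticoid response element, AGAACA, on either strand (TGTTCT on the other), and for the full palindrome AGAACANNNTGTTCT, which contains a pair of hexamers. Of 32851 windows of this length in the table, 16.1% held a hexamer and 0.0091%, or 3 windows, the palindrome. Among the members, 5 of 16 windows held a hexamer and 1, upstream of an Sgk1 start, held the palindrome. The windows with a hexamer belonged to 3 members, Sgk1, Tsc22d3 and Sult1a1, with more than 1 from Sgk1. Windows of 1 gene are not independent, so their share is a description only. Counts from 3′ ends do not show which start was used. The windows below are written 5′ to 3′ on the strand of the gene, in lower case with matches in capitals. For Sgk1 and Tsc22d3, with 6 and 3 windows, the window with the most matches was chosen.
Sgk1: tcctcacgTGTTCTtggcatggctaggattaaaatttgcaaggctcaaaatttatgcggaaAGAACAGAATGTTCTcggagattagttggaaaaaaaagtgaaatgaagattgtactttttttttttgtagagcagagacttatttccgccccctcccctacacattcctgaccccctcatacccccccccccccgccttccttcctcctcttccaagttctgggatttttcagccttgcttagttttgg
Sult1a1: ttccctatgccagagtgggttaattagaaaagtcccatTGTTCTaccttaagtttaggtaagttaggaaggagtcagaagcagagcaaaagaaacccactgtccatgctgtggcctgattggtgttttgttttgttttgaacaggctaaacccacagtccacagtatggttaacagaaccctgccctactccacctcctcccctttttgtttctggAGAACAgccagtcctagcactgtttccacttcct
Tsc22d3: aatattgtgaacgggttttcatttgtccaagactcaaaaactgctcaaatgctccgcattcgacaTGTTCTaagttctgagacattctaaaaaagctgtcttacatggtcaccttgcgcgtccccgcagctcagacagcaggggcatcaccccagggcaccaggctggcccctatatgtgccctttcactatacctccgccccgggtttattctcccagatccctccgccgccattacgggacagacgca
Plin4: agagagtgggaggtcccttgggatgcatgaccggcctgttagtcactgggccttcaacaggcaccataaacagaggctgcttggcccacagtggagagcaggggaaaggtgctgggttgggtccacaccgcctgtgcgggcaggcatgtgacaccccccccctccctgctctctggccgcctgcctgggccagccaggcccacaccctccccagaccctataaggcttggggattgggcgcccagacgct
Fkbp5: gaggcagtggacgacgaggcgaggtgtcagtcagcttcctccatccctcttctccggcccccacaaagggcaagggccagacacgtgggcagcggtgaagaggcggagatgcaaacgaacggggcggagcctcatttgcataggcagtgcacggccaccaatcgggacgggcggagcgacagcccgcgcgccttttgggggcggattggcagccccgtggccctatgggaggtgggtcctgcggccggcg
The Sgk1 window lies at chr10:21993640-21993889 (plus strand), with its palindrome 189 to 175 bases before the start and a further hexamer at 242 bases. Sult1a1 at chr7:126676419-126676668 (minus strand) had hexamers 212 and 34 bases before its start. Tsc22d3 at chrX:140600523-140600772 (minus strand) had 1 hexamer at 185 bases. Plin4 at chr17:56109783-56110032 and Fkbp5 at chr17:28486150-28486399, both on the minus strand, had none. No match says only that these letters are not in the window. Response elements of these genes are known to lie also in introns and at a distance.

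None of the 10 members passed an adjusted p of 0.05 in any of 9 tests by edgeR's quasi-likelihood method with Benjamini-Hochberg adjustment over all 13065 genes. Few genes of any kind did: 0.0536% in 5xFAD against WT, 0% in p75NTRko against WT, and 0.0383% where 5xFAD/p75NTRko was set against 5xFAD. The share was also 0% where 5xFAD/p75NTRko was set against p75NTRko or against WT. The shares were 0.0383% for the interaction of transgene and receptor label, 0.0153% for all transgene carriers against non-carriers, 0.0842% for all libraries with the receptor label against those without, and 0.0995% for any difference among the 4 genotypes. At an unadjusted p under 0.05, the members numbered 2, 2, 1, 1, 1, 1, 1, 1 and 1 of 10 in those tests, in the same order. The background at that threshold was 13.9%, 11.5%, 5.08%, 6.59%, 9.95%, 9.32%, 10.3%, 6.3% and 10.4% of genes, and the members' counts, read against it, were no result about them. Their median log2 fold change in 5xFAD against WT was 0.11, beside -0.004 over all genes tested. In p75NTRko against WT it was 0.08, beside -0.0006. For 5xFAD/p75NTRko it was 0.02 relative to 5xFAD, -0.20 relative to p75NTRko and 0.13 relative to WT, beside 0.01, 0.01 and 0.004 over all genes. Comparisons with the same WT or other libraries share them and are not independent of each other.

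**Figure D1:**
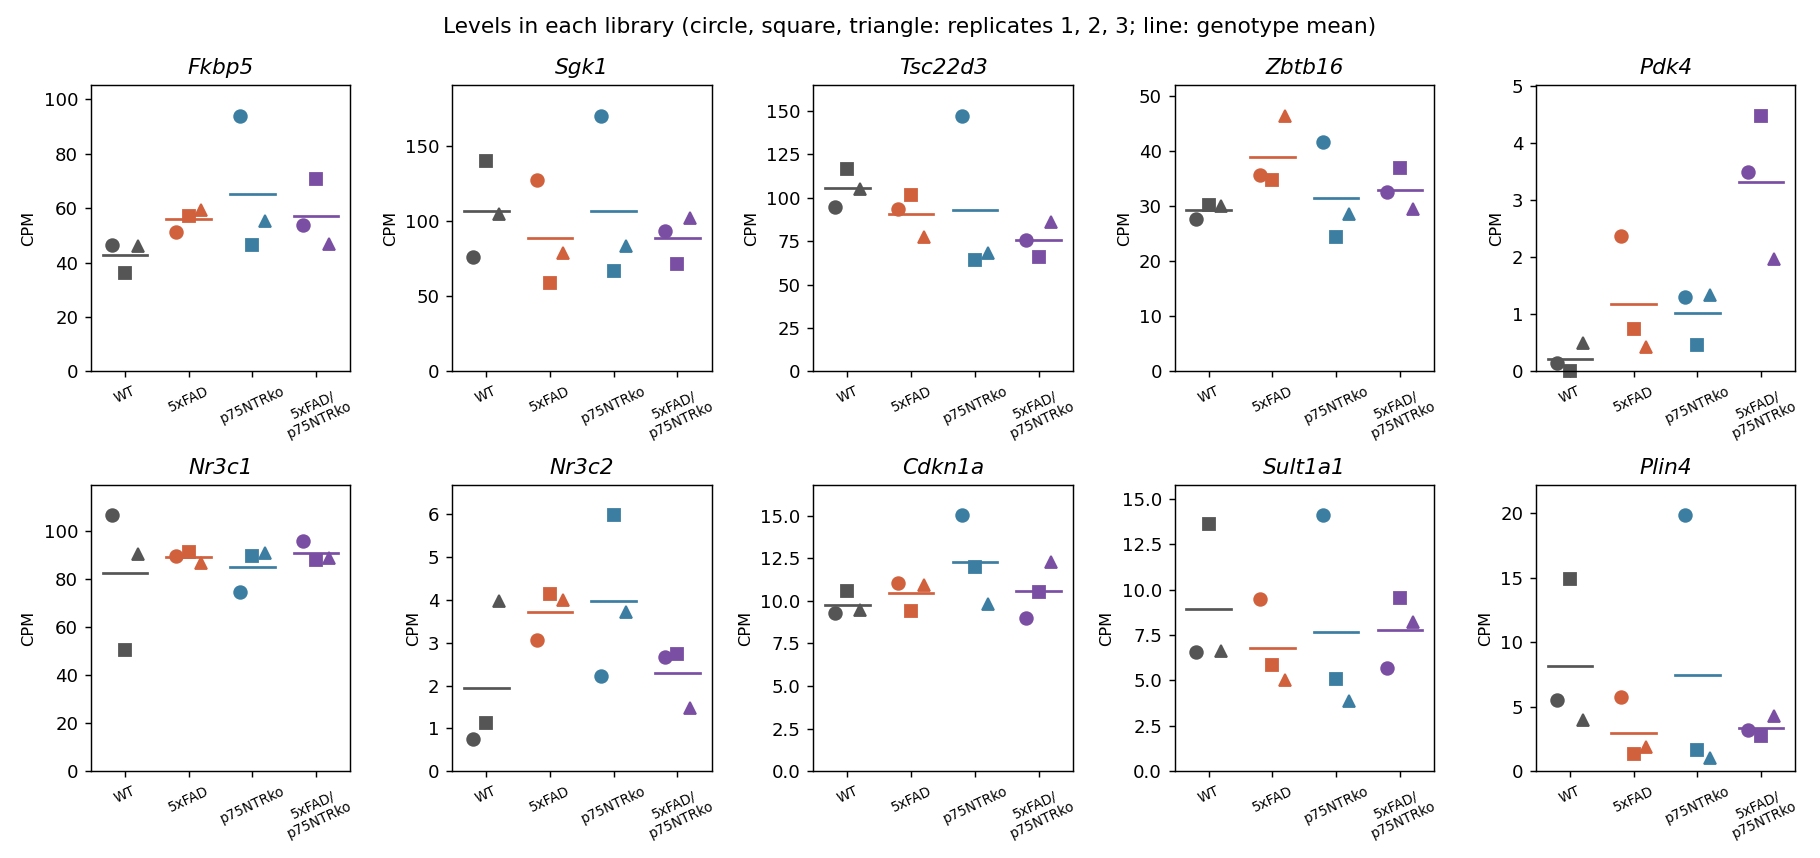
CPM of each member (vertical axes, linear, starting at 0) in the 12 libraries, by genotype; symbols are single libraries and lines are genotype means of 3. For Fkbp5, Sgk1, Tsc22d3, Cdkn1a, Sult1a1 and Plin4 the highest point is p75NTRko replicate 1, and Pdk4 is highest in 5xFAD/p75NTRko.

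The receptors were considered first. Nr3c1 had 106.7, 50.5 and 90.6 CPM in the WT libraries (replicates 1, 2 and 3 in order, here and throughout), 89.6, 91.5 and 86.7 CPM in those of 5xFAD, 74.9, 89.9 and 91.1 CPM in those labelled p75NTRko and 96.1, 87.9 and 89.0 CPM in those labelled 5xFAD/p75NTRko. WT held both the highest and the lowest of the 12 libraries, and the other genotypes lay within its range. Genotype means ran from 82.6 ± 29.0 CPM (SD, n = 3) in WT to 91.0 ± 4.43 CPM in 5xFAD/p75NTRko, and neighbours in that order did not differ beyond their spread. The log2 fold change was 0.11 (SE 0.189) in 5xFAD against WT, 0.05 (SE 0.189) in p75NTRko against WT and 0.14 (SE 0.189) in 5xFAD/p75NTRko against WT.

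Nr3c2 was measured on few counts, 5 to 26 per library. It had 0.747, 1.14 and 3.98 CPM in the WT libraries, 3.06, 4.13 and 3.997 CPM in those of 5xFAD, 2.22, 5.98 and 3.72 CPM in those labelled p75NTRko and 2.66, 2.73 and 1.48 CPM in those labelled 5xFAD/p75NTRko. Every 5xFAD library exceeded every 5xFAD/p75NTRko library, a separation that 11.2% of all genes showed in that comparison, and all other pairs of genotypes overlapped for Nr3c2. The interaction of transgene and receptor label had a log2 value of -1.71 (SE 0.733, adjusted p 0.508 by edgeR). Without WT replicate 3 it was -2.73. With Xist class as a term it was 0.18 (adjusted p 0.999), but p75NTRko alone holds both classes, so that fit rests on its replicate 1 as the only p75NTRko library of the WT class. Within a library, the log2 CPM of Nr3c2 minus that of Nr3c1 averaged -5.37 ± 1.13 (SD, n = 3) in WT, -4.47 ± 0.222 in 5xFAD, -4.40 ± 0.524 in p75NTRko and -5.15 ± 0.408 in 5xFAD/p75NTRko. The genotype ranges of this difference overlapped WT in every case. Since 28.9% to 33.5% of reads fell outside any feature and the annotation is not given in the sources used here, a transcript end missing from it would lower a gene's count, and the difference was read across libraries and not as the ratio of both transcripts.

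Fkbp5 (GRCm38.p6, chromosome 17, 28398753 to 28486149) encodes a co-chaperone of the receptor complex and is a widely used readout of receptor activity. It had 46.3, 36.0 and 46.1 CPM in the WT libraries, 51.1, 57.1 and 59.3 CPM in those of 5xFAD, 94.0, 46.4 and 55.5 CPM in those labelled p75NTRko and 54.0, 70.8 and 46.7 CPM in those labelled 5xFAD/p75NTRko. The WT libraries were the 3 lowest of the 12, although the lowest of p75NTRko exceeded the highest WT library by little (202 and 310 counts, 46.4 and 46.3 CPM). The lowest of 5xFAD/p75NTRko, at 46.7 CPM, also lay close to that WT library. How many of all genes had WT lowest throughout was not counted. Fkbp5 thus did not overlap WT in any of the other genotypes, which share those WT libraries, and 19.6% (5xFAD), 16.4% (p75NTRko) and 11.5% (5xFAD/p75NTRko) of all genes separated from WT in one direction or the other. The log2 fold change over WT was 0.38 (SE 0.220, adjusted p 0.448) in 5xFAD, 0.61 (SE 0.219, adjusted p 0.355) in p75NTRko and 0.41 (SE 0.219, adjusted p 0.531) in 5xFAD/p75NTRko by edgeR. The value for p75NTRko fell to 0.26 (adjusted p 0.678) without p75NTRko replicate 1 and to 0.147 without that library and WT replicate 2. With Xist class as a term it was 1.13, which sets p75NTRko replicate 1 alone against WT. The value for 5xFAD/p75NTRko ran from 0.23 (without its replicate 2) to 0.54 (without its replicate 3) over the alternatives. That for 5xFAD ran from 0.27 (without WT replicate 2) to 1.26 (Xist class as a term). Striatal markers (8 of 10 tested, Drd2 and Gpr6 at 0 in every library) also separated WT. They summed to 195 to 260.1 CPM in WT and 108 to 167 CPM in the other 9 libraries. Hippocampal neuron markers summed to 679 to 895 CPM in WT and 805 to 1201 CPM elsewhere, with overlap. Thalamic markers (8 of 8 tested, none at 0) overlapped too, at 356 to 635 CPM in WT and 217 to 741.5 CPM elsewhere. With thalamic markers as a covariate Fkbp5 was 0.51 in p75NTRko against WT, and the part of the striatal markers was not tested in this or any other comparison with WT.

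Zbtb16 (chromosome 9, 48651797 to 48836225) encodes a zinc finger transcription factor. It had 27.8, 30.2 and 30.0 CPM in the WT libraries, 35.7, 34.7 and 46.5 CPM in those of 5xFAD, 41.7, 24.4 and 28.7 CPM in those labelled p75NTRko and 32.6, 37.0 and 29.5 CPM in those labelled 5xFAD/p75NTRko. All 5xFAD libraries lay above all WT libraries, at 0.41 on the log2 scale (SE 0.178; edgeR adjusted p 0.338), and the difference was 0.26 without 5xFAD replicate 3 and 1.05 with Xist class as a term, a term that p75NTRko replicate 1 decides. Zbtb16 and Fkbp5 were the 2 of 10 members that did not overlap in that comparison, beside 19.6% of all genes.

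Pdk4 (chromosome 6, 5483351 to 5496278) encodes a kinase that switches off pyruvate dehydrogenase and so the entry of glucose carbon into the citrate cycle. The WT libraries had 1, 0 and 3 counts, those of 5xFAD 14, 4 and 2, those labelled p75NTRko 7, 2 and 9, and those labelled 5xFAD/p75NTRko 21, 23 and 12. All WT libraries were at or under the limit of 3 counts, while the 3 libraries of 5xFAD/p75NTRko, at 3.50, 4.48 and 1.97 CPM, exceeded every WT and every p75NTRko library. They overlapped 5xFAD, whose replicate 1 had 2.38 CPM. Separation from p75NTRko was shown by 12.3% of all genes. Pdk4 passed the expression filter only through the libraries in which it was high, so a difference had to follow. Its p-values, rank and ratio given next carry that selection and are a description only.

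Pdk4 had the smallest p of the members in the 9 tests but for p75NTRko against WT, led by Fkbp5, and the interaction, led by Nr3c2. Its log2 fold change over WT was 2.42 (SE 0.882, adjusted p 0.280) in 5xFAD and 2.23 (SE 0.899, adjusted p 0.380) in p75NTRko. The former was 1.39 without 5xFAD replicate 1 and 3.64 without WT replicate 3, and the latter 3.46 without WT replicate 3. In 5xFAD/p75NTRko against WT, whose libraries share 1 Xist class, it was 3.82 (SE 0.761, adjusted p 0.135 by edgeR, rank 16 of 13065 genes by p). Summed counts of 56 against 4, scaled to library size, gave a ratio of 15.3, with a 95% interval of 5.67 to 58.2 (exact, counting error only). Pdk4 was 1.40 (SE 0.582, adjusted p 0.878) higher on the log2 scale in 5xFAD/p75NTRko than in 5xFAD (2.43 without 5xFAD replicate 1) and 1.59 (SE 0.592, adjusted p 0.713) higher than in p75NTRko. Over all carriers the value was 2.01 (SE 0.530, adjusted p 0.245), and over all libraries with the receptor label 1.82 (SE 0.534, adjusted p 0.493). The test of any difference gave an adjusted p of 0.162. Pdk4 passed the threshold with no filter on low counts in 5xFAD/p75NTRko against WT (adjusted p 0.0402 by edgeR, the lowest of a range up to 0.666 over its alternatives) and in DESeq2's test of any difference (adjusted p 0.0109), while DESeq2 gave Pdk4 no adjusted p in the former comparison or in 4 of the other tests.

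**Figure D2:**
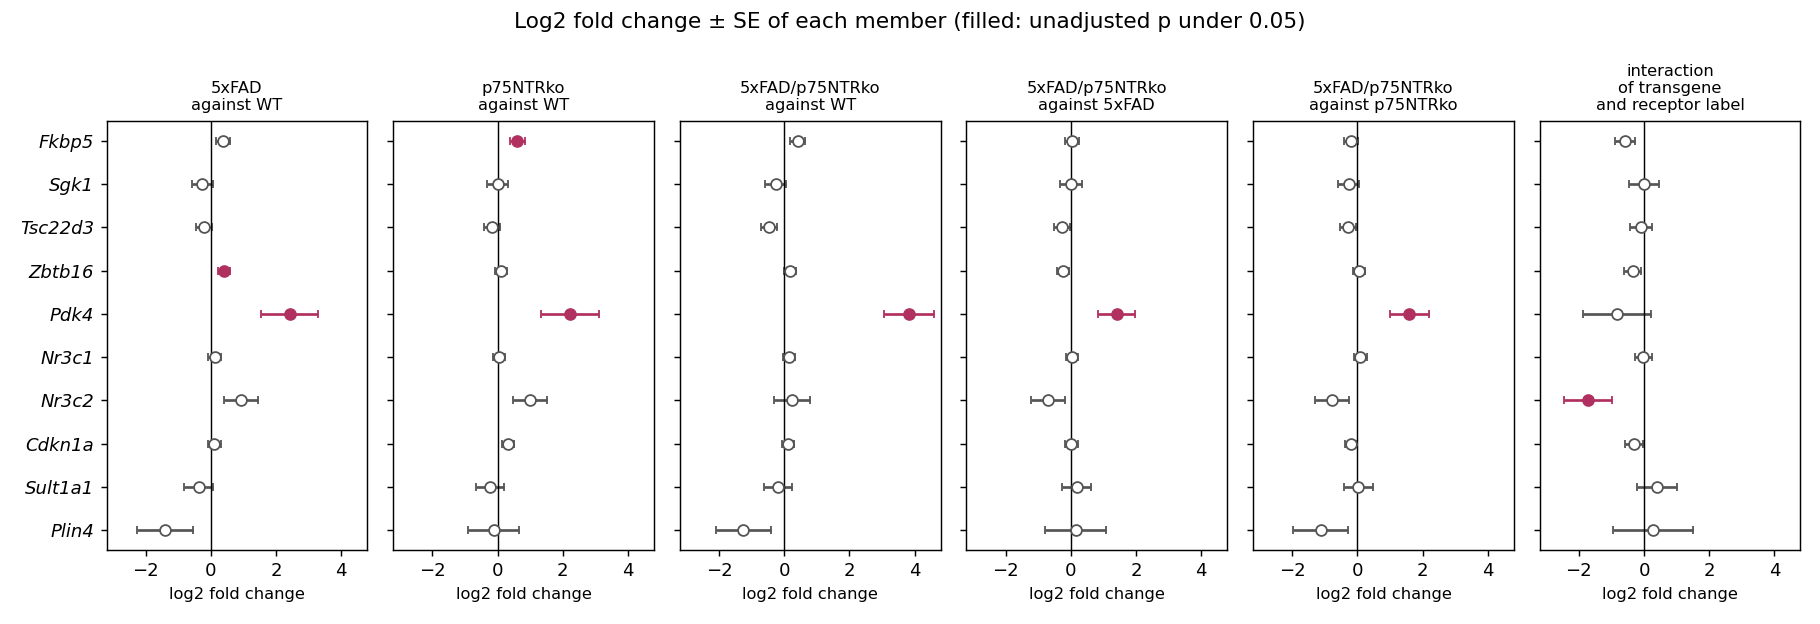
Log2 fold change with SE (horizontal axes) of each member in 6 of the comparisons, by edgeR over 12 libraries; filled points have an unadjusted p under 0.05. Pdk4, which passed the filter only through libraries in which it was high, lies furthest from 0, at 3.82 in 5xFAD/p75NTRko against WT. No point passes after adjustment over all genes.

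Sgk1 (chromosome 10, 21882184 to 21999903), which encodes a kinase that regulates ion channels and transporters, had 76.2, 139.7 and 104.5 CPM in the WT libraries, 127.3, 59.2 and 78.9 CPM in those of 5xFAD, 170.2, 67.1 and 83.5 CPM in those labelled p75NTRko and 93.6, 71.5 and 102.1 CPM in those labelled 5xFAD/p75NTRko. The genotypes overlapped throughout. Tsc22d3 (chromosome X, 140539528 to 140600522), which encodes the anti-inflammatory protein GILZ, had 94.7, 116.7 and 104.7 CPM in the WT libraries, 93.7, 101.4 and 77.2 CPM in those of 5xFAD, 147.2, 64.4 and 67.9 CPM in those labelled p75NTRko and 75.6, 65.7 and 86.1 CPM in those labelled 5xFAD/p75NTRko. Its 5xFAD/p75NTRko libraries all lay below WT, by -0.47 on the log2 scale (SE 0.241, edgeR adjusted p 0.522). In that comparison 11.5% of all genes separated in one direction or the other.

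Cdkn1a (chromosome 17, 29090979 to 29100722) encodes an inhibitor of cyclin-dependent kinases, which glucocorticoids and the p53 pathway both induce. It ranged from 8.99 to 15.01 CPM over the 12 libraries, and its genotype means ran from 9.76 ± 0.693 CPM (SD, n = 3) in WT to 12.3 ± 2.61 CPM in p75NTRko. It was the steadiest member: its SD over 12 libraries, 0.206 on the log2 scale, was below the median of 0.268 for the 1000 genes nearest to it in level.

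Sult1a1 (chromosome 7, 126672865 to 126690443) encodes a sulfotransferase that acts on phenols and catecholamines. It had 6.57, 13.6 and 6.64 CPM in the WT libraries, 9.51, 5.82 and 5.05 CPM in those of 5xFAD, 14.1, 5.06 and 3.87 CPM in those labelled p75NTRko and 5.66, 9.55 and 8.20 CPM in those labelled 5xFAD/p75NTRko. In WT and p75NTRko 1 library was at least 2 times the others. Plin4 (chromosome 17, 56100587 to 56109948), which encodes a coat protein of lipid droplets, had 5.53, 14.9 and 3.98 CPM in the WT libraries, 5.77, 1.31 and 1.89 CPM in those of 5xFAD, 19.8, 1.61 and 1.04 CPM in those labelled p75NTRko and 3.16, 2.73 and 4.26 CPM in those labelled 5xFAD/p75NTRko. The same 2 libraries, p75NTRko replicate 1 and WT replicate 2, were the highest for both genes and for Sgk1 and Tsc22d3. Relative to WT, Plin4 was -1.40 on the log2 scale in 5xFAD (SE 0.862; edgeR adjusted p 0.475), -0.12 in p75NTRko (SE 0.779; adjusted p 0.965) and -1.25 in 5xFAD/p75NTRko (SE 0.843; adjusted p 0.620), with overlap in each case. These values rest on single libraries: they were -2.34 without 5xFAD replicate 1, -2.65 (adjusted p 0.429) without p75NTRko replicate 1 and -0.48 without WT replicate 2, in that order. The SD of Plin4 over 12 libraries, 1.20 on the log2 scale, compared with a median of 0.394 for the 1000 genes nearest in level, and was above that of 98.8% of them. Sgk1 was at 98.3% and Tsc22d3 at 96.1% in the same description.

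Within p75NTRko, replicate 1 stood apart. The library was picked after the members' values were seen, so their excess in it over all genes was fixed by that choice. Replicate 1 is therefore only described. It was the highest of the 12 libraries for 6 of 10 members (Fkbp5, Sgk1, Tsc22d3, Cdkn1a, Sult1a1 and Plin4), against 7.62% of all genes, and exceeded 1.5 times the mean of replicates 2 and 3 for 6 of 10, against 4.91% of all genes. Its ratio to that mean was 14.97 for Plin4 (rank 3 of 13065), 3.16 for Sult1a1 (rank 31), 2.26 for Sgk1 (rank 107), 2.22 for Tsc22d3 (rank 115) and 1.84 for Fkbp5 (rank 259). The ratio of Plin4 rests on 107 counts in replicate 1 against 7 in replicate 2 and 7 in replicate 3. Both receptors went the other way, at 0.827 for Nr3c1 and 0.459 for Nr3c2. Of 21 other glucocorticoid-induced genes in a list, 19 were tested; replicate 1 was the highest library for 8 of these and exceeded 1.5 times the mean for 5. They included Hif3a at 4.02 (rank 15), a hypoxia-response regulator, and Arrdc2 at 2.84 (rank 40), an arrestin-domain protein, both singled out after their values were seen. Dusp1 and Per1, which respond fast to hormone, did not share the pattern in this library, at 0.899 and 0.867. Of 14 tested genes of receptor chaperones, cofactors and steroid supply, 0 exceeded 1.5 times. It was exceeded by 2 of 12 paralogs (Sgk3 at 1.90 and Plin3 at 1.55) and 1 of 3 corticotropin-releasing hormone genes (Crh at 1.67).

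WT replicate 2, also picked after the values were seen, showed part of this pattern. Its ratio to the mean of WT replicates 1 and 3 was 3.14 for Plin4 (rank 14), 2.78 for Hif3a, 2.06 for Sult1a1, 1.74 for Arrdc2 and 1.55 for Sgk1, and Tsc22d3 was at 1.17. Fkbp5, at 0.779, and Nr3c1, at 0.512, were the lowest of the 12 libraries there. Nr3c2 was at 0.480. Unlike in p75NTRko replicate 1, Dusp1 and Per1 were above the mean of the other replicates, at 1.48 and 1.23. WT replicate 2 was also the highest library for 16.5% of all genes, the largest share of any library.

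**Figure D3:**
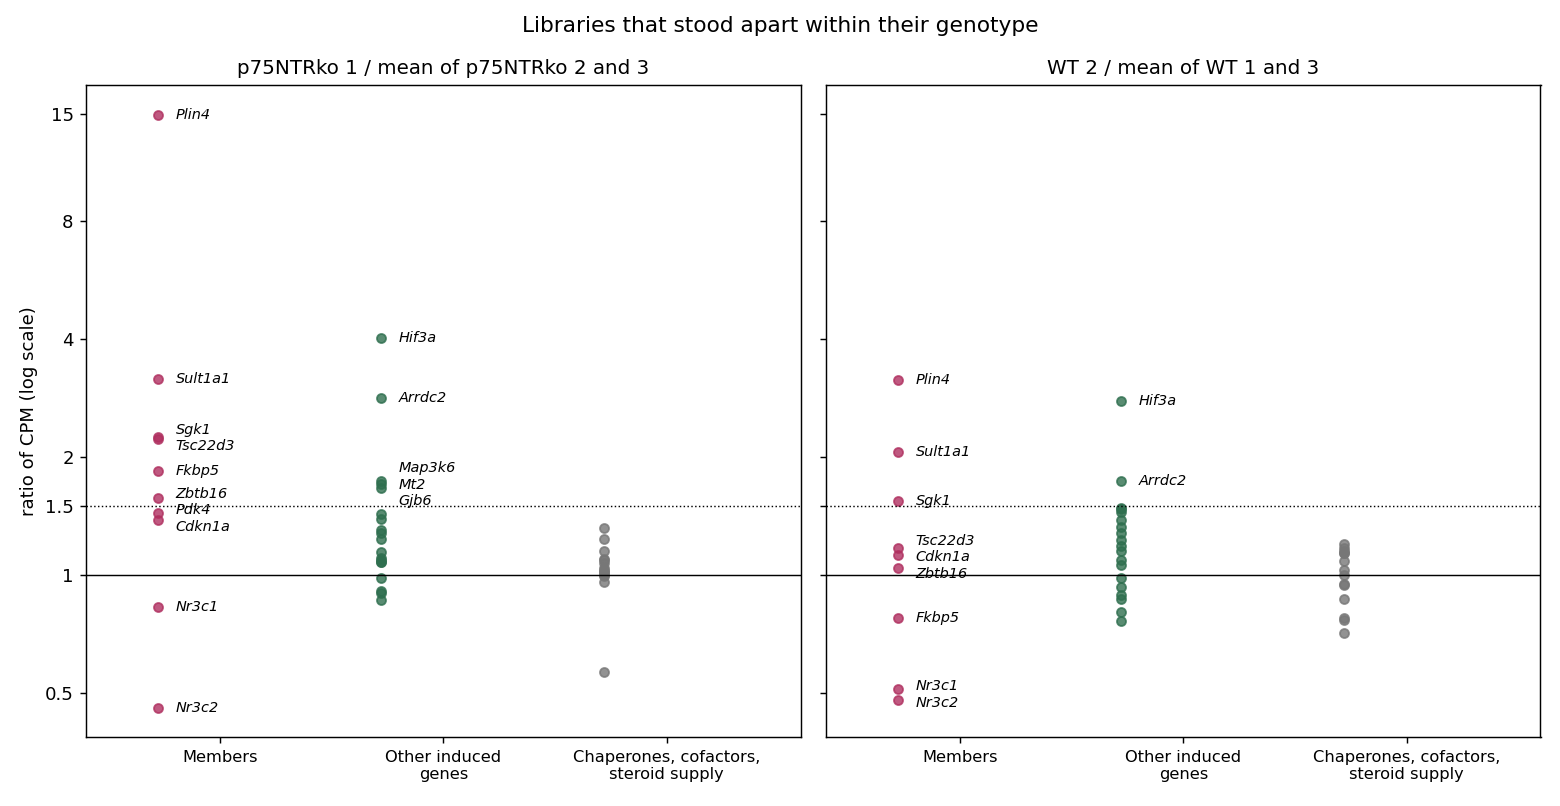
Ratio of CPM (vertical axes, log scale) of p75NTRko replicate 1 to the mean of replicates 2 and 3 (left) and of WT replicate 2 to the mean of replicates 1 and 3 (right); each point is a gene of the named list, and the dotted line marks 1.5. Plin4 is at 14.97 on the left and 3.14 on the right; Pdk4 in WT replicate 2, with 0 counts, is not drawn.

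Other measures of these libraries were set beside the pattern. p75NTRko replicate 1 was the only library of its genotype in the high Xist class and had the highest summed level of the 10 choroid plexus markers, all of them tested, at 7276 CPM, with 4445 and 5242 CPM in replicates 2 and 3. That sum was 2416 to 5972 CPM in WT, 321 to 1941 CPM in 5xFAD and 179 to 7236 CPM in 5xFAD/p75NTRko, and no marker was at 0 in any library. In 5xFAD/p75NTRko replicate 1, where the sum was 7236 CPM, Plin4 was at 3.16 CPM. Endothelial markers, 9 of 9 tested, summed to 315 CPM in p75NTRko replicate 1 and 314 CPM in WT replicate 2, within the range of 283 to 360 CPM over all libraries. Astrocyte markers, 8 of 8 tested, summed to 5687 and 5503 CPM there, within 5116 to 5914 CPM. Mural cell markers (5 of 6 tested, none at 0) had their lowest sums in these 2 libraries. These were 48.2 CPM in WT replicate 2 and 48.4 CPM in p75NTRko replicate 1, with 55.1 to 79.5 CPM in the others. By mean log2 CPM, however, WT replicate 1 (2.87) lay below WT replicate 2 (2.90). Oligodendrocyte markers (10 of 10 tested, none at 0) summed to 6973 CPM in p75NTRko replicate 1. Their sum was lowest in WT replicate 2, at 4017 CPM, with 4023 to 7598 CPM in the others. By mean log2 CPM, WT replicate 2 (7.04) lay above 5xFAD/p75NTRko replicates 2 (6.95) and 3 (6.78). Their part in the pattern was not tested. In these bulk samples, more cells of a type and more RNA per cell cannot be told apart.

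At their 3′ ends Plin4 and Sult1a1 overlap genes on the opposite strand, by 17 exon bases with Hdgfrp2 and 61 with Ccdc101 in GENCODE M21, and the strand setting of the counting is not given in the sources used here. Hdgfrp2 in p75NTRko replicate 1 was at 0.986 times the mean of replicates 2 and 3, and Ccdc101 at 0.952 times. In WT replicate 2 they were at 1.24 and 0.668 times the mean of replicates 1 and 3. The part of reads from the other strand was not tested.

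Likeness between genes was measured as Pearson's r of log2 CPM over the 12 libraries, with a permutation test of 100000 resamples, two-sided, adjusted over 13064 genes. The 4 genes most like Fkbp5 were Thoc1 (r 0.880), Rpf1 (0.873), Sgms1 (0.869) and Mgea5 (0.868), with adjusted permutation p of 0.0933 to 0.269, and none is a member or in the fixed lists. By Pearson 3 genes passed after adjustment, none of them among these 4, and by Spearman 0. The smallest p that these permutations can give is 1e-05. Counts of genes passing, here and for Plin4 below, therefore depend on the number of resamples. Of the 9 other members, Zbtb16 alone had an unadjusted p under 0.05, with r 0.67 and Spearman's rho 0.70 (permutation p 0.0167 and 0.0141, adjusted 0.385 and 0.301, rank 297), and 11.5% of all genes did so. Without the 2 libraries farthest from the Fkbp5 median, p75NTRko replicate 1 and WT replicate 2, r for Zbtb16 was 0.68. Sgk1, Tsc22d3, Sult1a1 and Plin4 had r of 0.10, 0.13, 0.16 and 0.07 with Fkbp5 over 12 libraries. Without p75NTRko replicate 1 alone these became -0.60, -0.62, -0.37 and -0.67, and without WT replicate 2 alone 0.39, 0.39, 0.57 and 0.43, so the values over 12 rest on these 2 libraries. With both left out, r was -0.36 for Sgk1, -0.42 for Tsc22d3, 0.09 for Sult1a1 and -0.40 for Plin4.

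**Figure D4:**
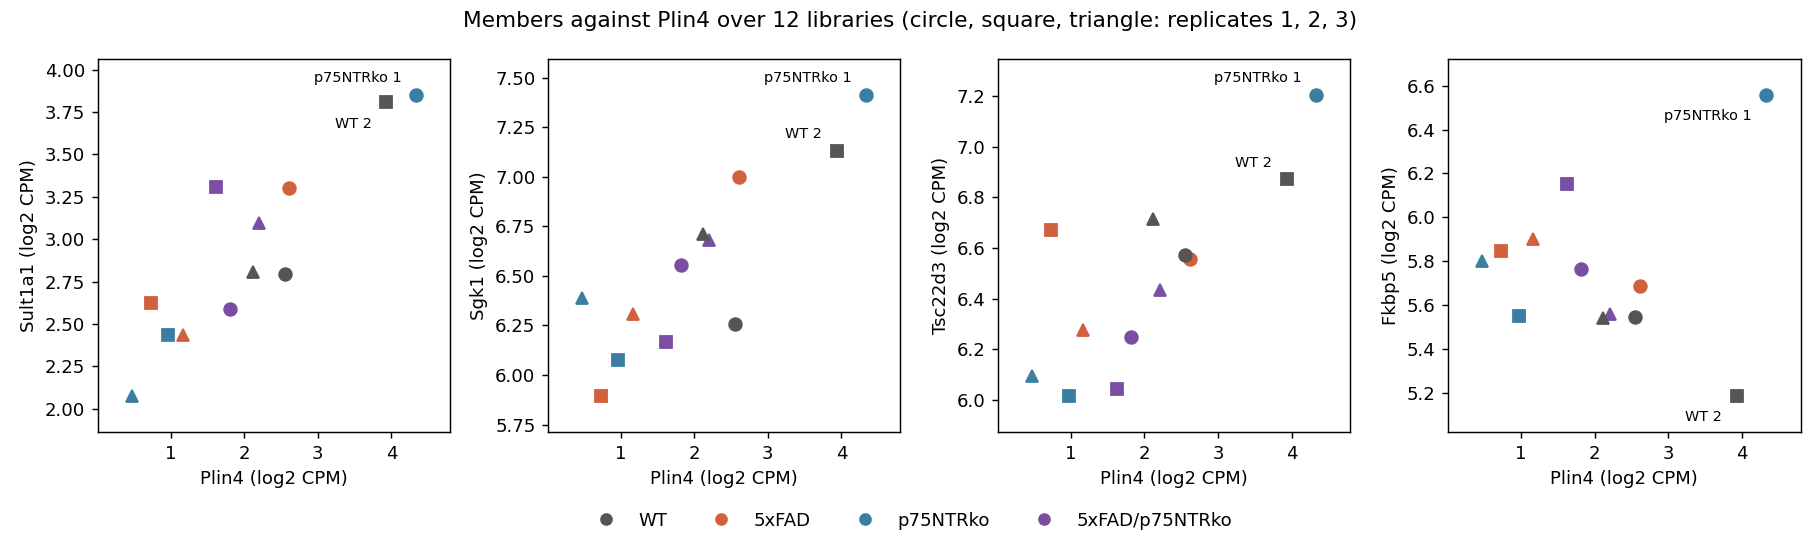
Log2 CPM of Sult1a1, Sgk1, Tsc22d3 and Fkbp5 (vertical axes) against that of Plin4 (horizontal axes) in the 12 libraries, coloured by genotype. Sult1a1 (r 0.90), Sgk1 (0.87) and Tsc22d3 (0.79) rise with Plin4, and the 2 labelled libraries lie at the end of each plot; Fkbp5 (0.07) is highest in one of them and lowest in the other.

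The same measure was taken for Plin4, a choice made after the values were seen. Sult1a1 was the 4th most like of 13064 genes (r 0.90, rho 0.82, permutation p 9e-05 and 0.00178, adjusted 0.196 and 0.800). Sgk1 was 8th (r 0.87, rho 0.78, permutation p 0.00033 and 0.00369, adjusted 0.479 and 0.800). Tsc22d3 was 23rd (r 0.79, rho 0.67, permutation p 0.00209 and 0.0203, adjusted 0.653 and 0.816). The other 4 of the first 5 were Unc45a (r 0.915), which encodes a myosin chaperone, Psat1 (0.912), an enzyme of serine synthesis, Mfsd2a (0.900), a lysolipid transporter of the blood-brain barrier, and Plekhf1 (0.890). No gene passed after adjustment, and 7.19% had an unadjusted p under 0.05. Without p75NTRko replicate 1 and WT replicate 2, which set the range of Plin4, r was 0.74 for Sult1a1, 0.67 for Sgk1 and 0.49 for Tsc22d3, and 0 members in place of 3 stood among the first 100. After centring on genotype means r was 0.92, 0.88 and 0.83, with both of these libraries kept. Nr3c2 ran against Plin4 (r -0.64, rho -0.73, permutation p 0.0250 and 0.00875, adjusted 0.681 and 0.816), at -0.66 without the 2 libraries, and Nr3c1 did so at -0.59 over 12 libraries and at 0.37 without the 2.

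Further genes of the pathway came from fixed lists, also chosen with earlier results of these data known. Of their 48 tested genes, 0 passed an adjusted p of 0.05 in any of the 9 tests by edgeR. Among 14 tested chaperones, cofactors and enzymes, Stip1, which passes client receptors between chaperones, had the smallest p in 5xFAD against WT, at -0.34 on the log2 scale (SE 0.120, adjusted p 0.278). Hsd11b1, which regenerates active hormone inside cells, lay at 16.6 to 31.4 CPM with overlap of all genotypes, and Hsd11b2, which inactivates it, was not tested for lack of counts. Abcb1a, the efflux pump that limits steroid entry at the blood-brain barrier, was -0.26 (SE 0.103, adjusted p 0.720) over all libraries with the receptor label.

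Among 19 tested induced genes, Klf9, a transcription factor induced by hormone in neurons, was at 464 to 534 CPM in the 6 libraries with the receptor label and at 551 to 606 CPM in the other 6, without overlap, as were 0.321% of all genes. Its log2 difference was -0.22 (SE 0.0573, adjusted p 0.396 by edgeR), and DESeq2 called it among 32 genes in all. Cebpb and Cebpd, transcription factors of the acute phase, had values of 0.40 (SE 0.123, adjusted p 0.325) and 0.66 (SE 0.249, adjusted p 0.372) in p75NTRko against WT. Nfkbia, the inhibitor of NF-kB, was -0.58 (SE 0.188, adjusted p 0.437) in 5xFAD/p75NTRko against WT and -0.41 (SE 0.134, adjusted p 0.354) over all carriers. In p75NTRko against WT 4 of the 19 had an unadjusted p under 0.05 in the direction of higher and 1 of lower, beside the 11.5% of all genes given above.

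Of the corticotropin-releasing hormone genes, 3 of 4 were tested. Crh, the peptide that starts the hormonal stress axis and is made by hippocampal interneurons, had 27.6, 16.6 and 14.1 CPM in the WT libraries, 10.4, 8.83 and 9.47 CPM in those of 5xFAD, 16.1, 11.3 and 8.03 CPM in those labelled p75NTRko and 10.8, 14.8 and 26.6 CPM in those labelled 5xFAD/p75NTRko. The 5xFAD libraries all lay below those of WT and of 5xFAD/p75NTRko. Of all genes, 19.6% separated 5xFAD from WT and 11.2% separated it from 5xFAD/p75NTRko, in one direction or the other. The log2 fold change was -1.03 (SE 0.338, adjusted p 0.257) in 5xFAD against WT and 0.87 (SE 0.342, adjusted p 0.878) in 5xFAD/p75NTRko against 5xFAD, and the interaction was 1.6 (SE 0.476, adjusted p 0.373). Both contrasts coincide with Xist class. Of 12 tested paralogs of members, Sgk2 had the smallest p, with -0.70 (SE 0.193, adjusted p 0.518) in 5xFAD/p75NTRko against 5xFAD, and the other 2 of the 3 smallest in the test of any difference were Cdkn1c and Plin3.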

How the data were processed

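Raw read counts per gene symbol were used as the authors deposited them, with 1 column for each library. Per the submitters' processing notes, the tools were FastQC, HISAT2, SAMtools, HTSeq and edgeR and the build was mm10; versions, annotation and strand setting are not given in the sources used here. Summary lines of the counting program stayed out of library sizes; 32.2% to 38.5% of reads were assigned to genes. edgeR 4.0.16 (R 4.3.3) supplied the expression filter (filterByExpr), TMM scaling (0.975 to 1.03) and the quasi-likelihood tests, all genotypes sharing 1 fit. Adjusted p-values are Benjamini-Hochberg over 13065 genes, and each SE was derived from a fold and its F value. Log2 CPM used a prior count of 2. P-values measure the spread between libraries labelled as biological replicates. Intervals were computed on counts pooled within each genotype, so they cover counting error only and leave out the spread between libraries. PCR copies could not be removed from these counts. No pair of replicates agreed within sampling noise. Chi-square per degree of freedom was 10.0 to 17.2 between WT replicates and 10.3 to 16.2 between those of 5xFAD/p75NTRko. Within 5xFAD and within p75NTRko it was 3.09 to 5.08. The shared fit pools this unequal spread. All members were named; list genes were named among the 3 smallest p of their list, and others after their values were seen. Of the 5 genes most like Fkbp5, 1 is not reported here. Members and lists were chosen with earlier results of these data known. DESeq2 1.42.0, other scalings, filters, covariates and left-out libraries were alternatives, and the procedures were tested on simulated data.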

Additional observations from a re-analysis of the deposited data

How the results depend on the processing

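The count of members called was 0 in each of 9 tests and under the alternatives run, with 2 exceptions, both Pdk4: 1 in 5xFAD/p75NTRko against WT with no filter on low counts and 1 in DESeq2's test of any difference. DESeq2 gave no adjusted p to 3, 2, 5, 1 and 5 of the 10 members in 5xFAD against WT, 5xFAD/p75NTRko against 5xFAD and against WT, the interaction and the carrier comparison, so its count of 0 there does not cover them. Leaving out each library in turn gave 0 throughout. The count of all genes called moved far more: by DESeq2 it was 101, 55, 23, 18, 30, 26, 74, 32 and 176 in the tests, in the order of the report, against 7, 0, 5, 0, 0, 5, 2, 11 and 13 by edgeR. In 5xFAD against WT it was 44 with no filter on low counts, 19 with the compared genotypes alone and 0 with Xist class as a term. In 5xFAD/p75NTRko against p75NTRko it was 69, and in p75NTRko against WT 32, with thalamic markers as a covariate. In the test of any difference it was 81 with no filter, 65 with thalamic and 33 with choroid plexus markers, and 7 without genes on X and Y. Leaving out 1 library moved the count from 1 to 57 in 5xFAD against WT (57 without WT replicate 3), from 0 to 26 in p75NTRko against WT (26 without WT replicate 3), from 0 to 25 in 5xFAD/p75NTRko against p75NTRko and from 1 to 53 in the test of any difference (25 and 53 without 5xFAD/p75NTRko replicate 1). The interaction of Nr3c2 turned from -1.71 to 0.183 with Xist class as a term, a fit in which p75NTRko replicate 1 is the only p75NTRko library of the WT class. Fkbp5 in p75NTRko against WT was 0.147 without both libraries of highest Plin4. Pdk4 in 5xFAD/p75NTRko against WT ranged from 3.29 to 5.05. Replicate numbers did not pair samples: of 18 same-numbered pairs 2 had a correlation of deviations over 0.1 (range -0.424 to 0.145). With the replicate block 0 members were called in every test, and of all genes 1 in place of 7 in 5xFAD against WT, 0 in place of 5 in 5xFAD/p75NTRko against 5xFAD, and 4 in place of 13 in the test of any difference. Of the other members, the count among the 100 genes most like Fkbp5 was 0, but 1 after centring on genotype and 1 within the high Xist libraries; for Plin4 it was 3, and 0 without the 2 farthest libraries. The receptor difference moved by less than its SD under both alternatives. Nr3c2 and Pdk4 were limited by depth, at 0 to 26 counts per library. So was Plin4 in its lowest libraries, at 7 counts.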
